A study of Mus musculus with 4 samples.

Results

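The genes described here are the 5 subunits of the transcription factor NF-κB (Nfkb1, Nfkb2, Rel, Rela and Relb) and 5 genes grouped as its inhibitors. The inhibitor group holds Nfkbia, Nfkbib, Nfkbie, Nfkbiz and Tnfaip3, which do not all act in the same way. All 10 genes were chosen by name. They were found among the 54532 genes present in both count tables and among the 13811 protein-coding genes tested. The study asked how the green tea flavanol epigallocatechin gallate (EGCG) alters gene expression in microglia, the resident macrophages of the brain. Microglia came from the cortex of CD1 male mouse pups aged 1 to 3 days, grown as mixed glia with GM-CSF until the astrocyte layer was taken off with trypsin. They were then kept without serum in medium holding IL-34, TGFβ2, GM-CSF and cholesterol, which both groups received. The EGCG group was given 1 µM EGCG for 24 h and the Vehicle group the DMSO solvent, with 2 libraries in each. The groups differ in EGCG alone as far as the labels say, and no inflammatory stimulus is named for either.

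NF-κB proteins act as dimers that inhibitor proteins of the IκB family hold in the cytoplasm of resting cells. Signals from cytokine and pattern-recognition receptors lead to destruction of the inhibitor, and the freed dimers enter the nucleus and switch on inflammatory genes. Several inhibitors are themselves NF-κB targets, which closes a negative feedback loop that limits inflammation in macrophages and microglia.

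Vehicle and EGCG libraries of replicate 1 held 33805071 and 34300679 counts in total, and those of replicate 2 held 36307930 and 54970300. Each replicate number belongs to 1 table that holds a Vehicle and an EGCG library, and values are given within each replicate for that reason. The labels call the numbers biological replicates and do not say what else libraries with the same number share. Levels are CPM, read counts made comparable between libraries by TMM scaling. The lowest count of any of the 10 genes was 890, for Nfkbiz in EGCG replicate 1, so none was near the limit of detection.

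All 11 microglia markers were detected in every library, with summed levels of 6151 CPM in Vehicle and 6818 CPM in EGCG of replicate 1, and 9729 and 9464 CPM in those of replicate 2. The most abundant was C1qa, a complement component, at 1443, 1688, 3155 and 2794 CPM in the same order. P2ry12, Tmem119 and Sall1 were between 10.9 and 45.1 CPM, below the border macrophage genes Pf4 and Mrc1 at 130 to 520 CPM. Microglial transcripts were therefore present, and the part of other macrophages in the cultures was not tested.

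The subunits were more abundant in both libraries of replicate 2 than in both libraries of replicate 1, and differed little between EGCG and Vehicle within a replicate. Nfkb1 (ENSMUSG00000028163, chr3:135584655-135691547 of GRCm38, minus strand) encodes p105, the precursor of the DNA-binding subunit p50. It was measured at 160.0 CPM in Vehicle and 162 CPM in EGCG of replicate 1, and 291 and 297 CPM in those of replicate 2. Rela (ENSMUSG00000024927, chr19:5637483-5648130, plus strand) encodes p65, the main transactivating partner of p50. Its levels were 84.6 CPM in Vehicle and 82.0 CPM in EGCG of replicate 1, and 143 and 151 CPM in those of replicate 2. For both genes the EGCG and Vehicle groups overlapped and the replicates did not.

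Rel (ENSMUSG00000020275, chr11:23736847-23770970, minus strand) encodes c-Rel, a transactivating subunit prominent in blood and immune cells. It was at 42.0 CPM in Vehicle and 47.2 CPM in EGCG of replicate 1, and 71.6 and 74.5 CPM in those of replicate 2. Nfkb2 (ENSMUSG00000025225, chr19:46304737-46312090, plus strand) encodes p100, which is processed to p52 in the noncanonical pathway. It was at 81.3 CPM in Vehicle and 85.9 CPM in EGCG of replicate 1, and 188 and 187 CPM in those of replicate 2. Relb (ENSMUSG00000002983, chr7:19606217-19629438, minus strand) encodes the usual partner of p52. It was at 42.1 CPM in Vehicle and 47.3 CPM in EGCG of replicate 1, and 95.0 and 98.2 CPM in those of replicate 2. The genes of the noncanonical dimer thus showed the largest fold differences between replicates among the subunits.

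The inhibitors were less alike. Nfkbia (ENSMUSG00000021025, chr12:55489410-55492647, minus strand) encodes IκBα, which retains dimers in the cytoplasm and is resynthesised rapidly after NF-κB activation. It was measured at 60.4 CPM in Vehicle and 72.3 CPM in EGCG of replicate 1, and 104 and 117 CPM in those of replicate 2. Nfkbie (ENSMUSG00000023947, chr17:45555703-45563169, plus strand) encodes IκBε, another cytoplasmic inhibitor, and was at 51.7 CPM in Vehicle and 59.6 CPM in EGCG of replicate 1, and 72.0 and 82.3 CPM in those of replicate 2. In both genes the EGCG library was above the Vehicle library of its own replicate, while the groups as a whole overlapped.

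Tnfaip3 (ENSMUSG00000019850, chr10:19000910-19015657, minus strand) encodes A20, a ubiquitin-editing enzyme that shuts off signalling upstream of the IκB kinase. The Vehicle libraries held 124.5 CPM (replicate 1) and 124.3 CPM (replicate 2), and the EGCG libraries 137 and 154 CPM. It was the 1 gene of the 10 whose EGCG and Vehicle libraries did not overlap, against 11.9% of all genes tested. The 2 Vehicle libraries were nearly equal for Tnfaip3, unlike those of every other gene of the 10.

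Nfkbib (ENSMUSG00000030595, chr7:28758251-28767512, minus strand) encodes IκBβ and was at 27.8 CPM in Vehicle and 30.9 CPM in EGCG of replicate 1, and 35.6 and 37.6 CPM in those of replicate 2. Nfkbiz (ENSMUSG00000035356, chr16:55811375-55838899, minus strand) encodes IκBζ, a nuclear family member that modulates transcription of a subset of NF-κB targets. It was at 29.9 CPM in Vehicle and 27.8 CPM in EGCG of replicate 1, and 133 and 124 CPM in those of replicate 2. Nfkbiz was the only gene of the 10 that was lower in EGCG within both replicates, and the one that differed most between replicates.

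**Figure D1:**
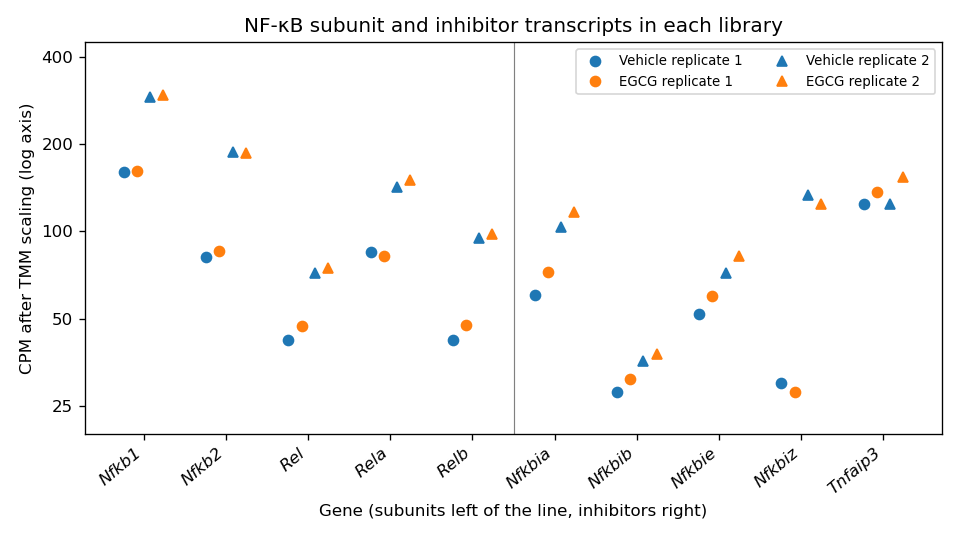
Level of each NF-κB subunit and inhibitor transcript in CPM on a log axis, with 1 point per library, circles for replicate 1 and triangles for replicate 2, Vehicle in blue and EGCG in orange. Triangles lie above circles of the same gene except for Tnfaip3, where Vehicle replicate 2 (124.3 CPM) lies beside Vehicle replicate 1 (124.5 CPM).

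The first comparison asked whether EGCG changed these transcripts. When treatment alone was modelled in edgeR's quasi-likelihood test, 0 of the 10 genes had an unadjusted p under 0.05, against 0.116% of all genes tested, and DESeq2 without a replicate term also gave 0. The smallest unadjusted p was 0.168, for Tnfaip3, with a log2 fold change of 0.23 (SE 0.13). The log2 fold change was 0.21 (SE 0.39) for Nfkbia, 0.20 (SE 0.26) for Nfkbie and -0.10 (SE 1.05) for Nfkbiz. The other 6 lay between 0.02 and 0.11, and the adjusted p was 0.9999 for each of the 10. The median over the 10 genes was 0.09, beside 0.01 over all genes. No effect of EGCG on any of the 10 was therefore resolved over the spread between replicates. That spread was wide, and the 95% interval for Nfkb1 ran from -1.24 to 1.29 on the log2 scale.

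Within replicates the EGCG differences were small and mostly upward. The log2 difference of EGCG over Vehicle was 0.26 in replicate 1 and 0.18 in replicate 2 for Nfkbia, and 0.21 and 0.19 for Nfkbie. For Tnfaip3 it was 0.14 in replicate 1 and 0.31 in replicate 2, which are folds of 1.10 and 1.24. Among all 10 genes, 7 were higher in EGCG in both replicates, against 29.9% of all genes tested, or 6 by upper-quartile or total-count scaling, where Nfkb1 came to -0.02 and -0.04 in replicate 1. Nfkbiz was lower in both, by log2 differences of -0.11 and -0.10. Nfkb2 (0.08 and -0.01) and Rela (-0.05 and 0.08) changed sign between replicates. Across all genes tested, the EGCG difference of replicate 1 had a correlation of r = -0.05 with that of replicate 2, with genes that are not independent replicates.

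When the replicate number was added to the edgeR model as a block, 3 of the 10 genes had an unadjusted p under 0.05, against 3.21% of all genes tested, and all 3 were higher in EGCG, against 2.12%. They were the inhibitor genes Nfkbia (log2 fold change 0.22, SE 0.06, unadjusted p = 0.0116), Tnfaip3 (0.23, SE 0.06, unadjusted p = 0.0128) and Nfkbie (0.20, SE 0.06, unadjusted p = 0.0162). After Benjamini-Hochberg adjustment over all genes tested the edgeR p was 0.995 for each, so none passed. DESeq2 with the block gave an unadjusted p of 0.0399 for Nfkbia, 0.0196 for Tnfaip3 and 0.0831 for Nfkbie. As folds, the blocked 95% intervals were 1.05 to 1.28 for Nfkbia, 1.05 to 1.30 for Tnfaip3 and 1.04 to 1.27 for Nfkbie.

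None of the 5 subunit genes had a blocked p under 0.05 in edgeR or in DESeq2. The blocked intervals of the EGCG fold were 0.937 to 1.11 for Nfkb1, 0.919 to 1.12 for Rela and 0.935 to 1.12 for Nfkb2. They were 0.967 to 1.21 for Rel and 0.963 to 1.20 for Relb. Larger differences than these bounds were therefore outside the intervals of the blocked fit, whereas the intervals without the block were far wider. The blocked intervals rest on 2 replicates and on a spread estimated partly from all genes. In the test without the block, the median over the 10 genes was -0.40 without EGCG replicate 2 and -0.26 without Vehicle replicate 1. It was 0.41 without EGCG replicate 1 and 0.52 without Vehicle replicate 2. Such a fit sets 1 library against both replicates, which differed for these genes, so these medians do not bear on the blocked intervals.

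Markers of other cells were not even between the treatment groups. The 7 fibroblast and mural markers, led by the collagen gene Col3a1, summed in replicate 1 to 426 CPM in Vehicle and 5.80 CPM in EGCG, but in replicate 2 to 161 and 178 CPM. Of the 5.80 CPM, 4.40 were Pdgfra, which was higher in EGCG within both replicates. The 8 astrocyte markers, led by Aldh1l1, summed to 19.8, 14.4, 13.9 and 15.0 CPM in that order, with Gjb6 at 0 in all libraries. In replicate 1 only Aldh1l1 of the 7 astrocyte markers with counts was higher in EGCG (log2 difference 0.21), the median was -1.88, and the fall in the sum came mainly from Gja1 (160 counts in Vehicle and 1 in EGCG). With the block the endothelial gene Cdh5 was lower in EGCG (log2 fold change -1.75, unadjusted p = 0.00584 in edgeR and 0.0183 in DESeq2), and of the microglia markers Trem2 was higher (0.15, unadjusted p = 0.0449 in edgeR and 0.0384 in DESeq2), while Sall1 was called, as lower, in edgeR alone. The part of these markers' source in the differences of the 10 genes was not tested in either replicate. In whole-culture RNA, fewer cells of a type cannot be told apart from less RNA per cell.

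The other comparison asked how far the 10 genes varied between replicates. In the edgeR fit with both treatment and replicate, 9 of the 10 had an unadjusted p under 0.05, against 52.7% of all genes tested. The same 9 passed an adjusted p under 0.1, against 53.5% of all genes tested, and all were higher in replicate 2, against 27.7%. In 9 of the 10, both replicate 2 libraries lay above both replicate 1 libraries, against 39.2% of all genes. The median log2 difference of replicate 2 over replicate 1 was 0.78 for the 10 genes and 0.01 for all genes.

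Nfkbiz differed most, with a log2 difference of 2.16 (SE 0.06, edgeR adjusted p = 0.000119), or 4.47-fold. Nfkb2 followed with 1.16 (SE 0.05, edgeR adjusted p = 0.000164) and Relb with 1.11 (SE 0.06, edgeR adjusted p = 0.000267). The remaining subunits lay between 0.71 for Rel and 0.87 for Nfkb1. Among the inhibitors, Nfkbia was higher by 0.74, Nfkbie by 0.47 and Nfkbib by 0.32 on the log2 scale. Tnfaip3 did not pass, with a log2 difference of 0.08 (SE 0.06, edgeR adjusted p = 0.317) and a 95% interval from -0.07 to 0.24. With scaling to total counts its log2 difference was 0.16 and it passed (edgeR adjusted p = 0.0911). The genes grouped as inhibitors thus did not move as a block between replicates, with IκBζ transcripts far higher and A20 transcripts nearly level.

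**Figure D2:**
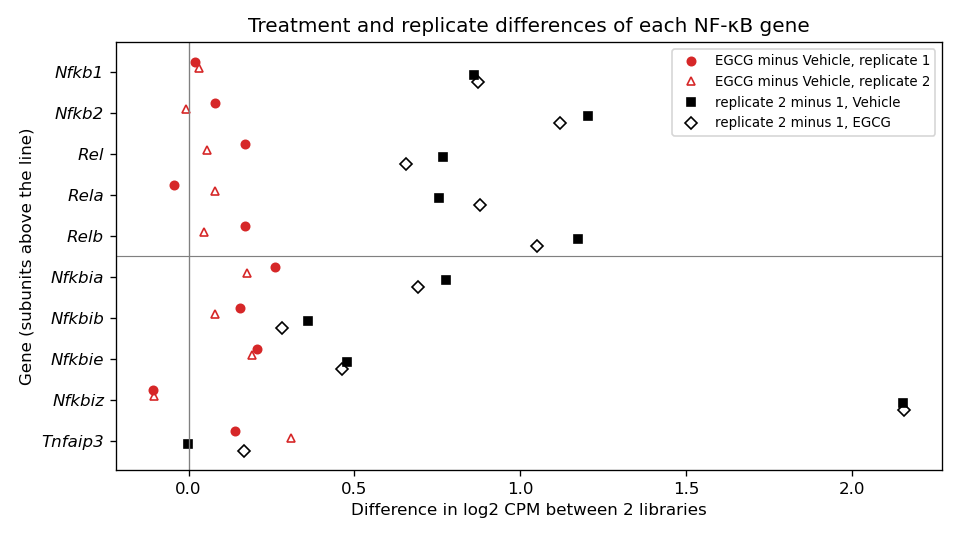
Difference in log2 CPM between 2 libraries for each gene, with EGCG minus Vehicle in red (replicate 1 filled, replicate 2 open) and replicate 2 minus replicate 1 in black (Vehicle filled, EGCG open). Red points lie between -0.11 and 0.31, while black points reach 2.16 for Nfkbiz and lie near 0 for Tnfaip3 in Vehicle.

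For 9 of the 10 genes, both differences between replicates were larger than both differences between EGCG and Vehicle, the exception being Tnfaip3, as they were for 57.1% of all genes. The replicate differences were shared by other transcripts. All 11 microglia markers passed the replicate test in edgeR (against 53.5% of all genes tested), 7 higher and 4 lower in replicate 2 (against 27.7% and 25.7%). The endothelial list, led by Kdr in replicate 1 and Pecam1 in replicate 2, summed to 7.71, 5.74, 19.7 and 16.5 CPM in the order of libraries used above. The rise was in Pecam1 alone (log2 difference 7.51), as Kdr (-0.79) and Cdh5 (-1.55) were lower in replicate 2 and Cldn5 was at 0 throughout. The neuron list summed to 19.0, 18.5, 1.47 and 2.52 CPM. It was led by Snap25 except in EGCG replicate 2, where Syp was higher (0.779 against 0.653 CPM). Snap25 (log2 difference -4.82) was the only one of its 5 markers tested that passed. The oligodendrocyte lineage list, led by Cspg4 in replicate 1 and Mbp in replicate 2, summed to 156, 154, 118 and 119 CPM. Mbp was level between replicates and Cspg4 lower in replicate 2 (log2 difference -0.90). The border macrophage list, led by Pf4 in replicate 1 and Mrc1 in replicate 2, summed to 666, 765, 497 and 457 CPM. Within that list, Pf4 was lower (-1.83) and Mrc1 higher (0.57) in replicate 2 on the log2 scale. The part of cell composition in the higher NF-κB transcripts of replicate 2 was not tested.

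Levels were compared between genes as CPM per kilobase of the deposited gene length, so they depend on that length. On this scale Nfkbia was the most abundant of the 10 over the 4 libraries, at a mean of 54.8 CPM per kb, followed by Rela at 42.4 and Nfkb2 at 41.2. Rel was the least abundant subunit at 7.88 CPM per kb. In CPM per kb, Rela exceeded Nfkb2 in replicate 1 (31.2 and 30.2 against 24.7 and 26.1) and Nfkb2 exceeded Rela in replicate 2 (57.0 and 56.8 against 52.6 and 55.6). Their order was thus not fixed between replicates. In CPM per kb, Tnfaip3 (17.2) exceeded Nfkb1 (13.3) and Relb (10.8) in Vehicle replicate 1, but was below both in Vehicle replicate 2 (17.2 against 24.1 and 24.5).

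The make-up of the subunit pool differed by a few percentage points between libraries. As a share of the subunits' summed CPM per kb, Rela made up 36.4% in Vehicle and 34.2% in EGCG of replicate 1, and 31.3% and 32.3% in those of replicate 2. The share of Rel in CPM per kb was between 5.71% and 7.17%. The inhibitor pool was less even. The share of Nfkbiz in the inhibitors' CPM per kb was 6.59% and 5.36% in Vehicle and EGCG of replicate 1, and 17.9% and 15.2% in replicate 2. The share of Tnfaip3 was 19.0% and 18.4% in replicate 1, and 11.6% and 13.1% in replicate 2.

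The ratio of summed inhibitors to summed subunits in CPM per kb was 1.06 in Vehicle replicate 1 and 1.17 in EGCG replicate 1. It was 0.883 in Vehicle replicate 2 and 0.947 in EGCG replicate 2. The inhibitor sum joins unlike functions, as it includes Nfkbiz, whose nuclear product modulates transcription of NF-κB targets, and the enzyme gene Tnfaip3. The ratio of Nfkbia to Rela in CPM per kb was 1.20 and 1.49 in Vehicle and EGCG of replicate 1, and 1.22 and 1.31 in replicate 2. Both ratios were higher in EGCG within each replicate. Neither ratio was tested. With 2 libraries against 2, the smallest two-sided p of an exact permutation test is 0.333, and no model was fitted to the ratios.

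The rest of the pathway was followed in 6 lists with 97 genes, all of them tested. Without the block 0 of the 97 had an unadjusted p under 0.05 in edgeR or DESeq2, and the smallest edgeR p was 0.0755, for Mmp9. With the block in edgeR, 13 did, against 3.21% of all genes tested. Of these, 10 were higher in EGCG (against 2.12%) and 3 lower (against 151 of the 13811 genes tested). DESeq2 with the block gave 7, against 153 of the 13811. None of the 10 genes of the IκB kinase complex and the kinases and adaptors around it (including Tbk1, Ikbke and Tab2), 14 receptor adaptors (including Myd88, Irak1 and Card9) or 13 ubiquitin ligases and deubiquitinases (including Otulin, Birc3 and Rnf11) was among them. Of 17 receptors, which include the abundant Cd14, Tnfrsf1b and Tlr2, the costimulatory receptor gene Cd40 was 0.42 higher on the log2 scale with the block (edgeR, unadjusted p = 0.0422). Of 13 other inhibitors, which include Tnip1, Tnip2 and Irak3, the A20-binding protein gene Tnip3 was 0.39 higher (edgeR, unadjusted p = 0.00298). Bcl3, a nuclear IκB relative, had a blocked log2 fold change of -0.21 (edgeR, unadjusted p = 0.0175).

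Of 30 target genes, 8 were higher (against 2.12% of all genes tested) and 2 lower (against 151 of the 13811) with the block in edgeR. The study had already reported Plau, Ccl3 and Cxcl10 as higher and Cxcl1 as lower with EGCG in these libraries. As the list was chosen with earlier results known, neither this count nor the 13 of the 97 is independent of them. The higher ones were the cytokine and chemokine genes Tnf, Ccl2, Ccl3 and Cxcl10, the adhesion gene Icam1, the survival gene Bcl2a1d and the protease genes Plau and Mmp9. Blocked log2 fold changes among them ran from 0.18 for Icam1 to 0.64 for Cxcl10. The lower ones were Cxcl1 (-1.20) and Nos2 (-0.91), both at under 10 CPM in every library. In edgeR none of the 97 passed after adjustment, and the smallest adjusted p was 0.995. DESeq2 with the block passed 1, Plau (adjusted p = 0.0207). Of the 13 genes, Cd40, Bcl3, Tnf, Ccl2, Bcl2a1d and Mmp9 had an unadjusted p of 0.05 or more in DESeq2 with the block.

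Between replicates, 68 of the 97 pathway genes passed an adjusted p under 0.1 in edgeR, against 53.5% of all genes tested, 50 of them higher in replicate 2 (against 27.7%) and 18 lower (against 25.7%). Of the 30 target genes, 26 did not overlap between replicates (against 10571 of the 13811 genes tested). In 19 both replicate 2 libraries were the higher ones (against 39.2% of all genes tested). Il1b was 4.14 higher on the log2 scale and Il6 4.24 higher, though Il6 had only 22 and 5 counts in Vehicle and EGCG of replicate 1. Ccl5, a chemokine gene, was 2.53 higher and Ikbke 1.80 higher. Per kilobase Ccl5 was the most abundant target over the 4 libraries, though below Plau and Ccl3 in replicate 1. Tnf had a log2 difference of -0.56 and Plau of -1.23, so NF-κB target transcripts did not all follow the subunits.

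Promoter windows were examined for matches to the κB consensus. Several of the genes are known NF-κB targets, so matches were likely whatever the replicates did. The part of such matches in the replicate differences was not tested. RefSeq promoter windows (GRCm38.p6, 250 bases before to 50 after a start) were found for 7 of the 10 genes. Nfkb1, Relb and Nfkbiz had no entry. On both strands and with overlapping matches merged, the consensus was matched for 5 of the 7 genes (Nfkb2, Tnfaip3, Nfkbia, Nfkbie and Rel). By window, it was matched in 7 of the 10 windows of the 7 genes, against 4.51% of all 32851 windows of 300 bases. No match was found for Rela or Nfkbib. Windows of at most 3 genes, taken by number of matches and then by level per kilobase, are given 5′ to 3′ on the gene's strand, in lower case with the matches in capitals, for Nfkb2 (chr19:46304487-46304786 and chr19:46305445-46305744, plus strand), Tnfaip3 (chr10:19015361-19015660, minus strand) and Nfkbia (chr12:55492598-55492897, minus strand).
Nfkb2 upstream start: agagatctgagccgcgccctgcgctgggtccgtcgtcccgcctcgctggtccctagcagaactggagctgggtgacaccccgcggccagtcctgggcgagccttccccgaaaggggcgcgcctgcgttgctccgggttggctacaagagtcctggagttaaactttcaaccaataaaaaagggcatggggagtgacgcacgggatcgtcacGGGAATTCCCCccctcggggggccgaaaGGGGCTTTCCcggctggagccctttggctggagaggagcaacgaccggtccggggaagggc
Nfkb2 downstream start: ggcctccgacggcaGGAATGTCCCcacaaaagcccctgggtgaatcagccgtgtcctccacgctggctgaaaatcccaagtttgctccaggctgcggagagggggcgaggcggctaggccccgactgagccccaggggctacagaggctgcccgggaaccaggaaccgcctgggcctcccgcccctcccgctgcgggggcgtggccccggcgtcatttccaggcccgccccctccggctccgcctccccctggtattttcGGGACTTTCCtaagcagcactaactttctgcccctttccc
Tnfaip3: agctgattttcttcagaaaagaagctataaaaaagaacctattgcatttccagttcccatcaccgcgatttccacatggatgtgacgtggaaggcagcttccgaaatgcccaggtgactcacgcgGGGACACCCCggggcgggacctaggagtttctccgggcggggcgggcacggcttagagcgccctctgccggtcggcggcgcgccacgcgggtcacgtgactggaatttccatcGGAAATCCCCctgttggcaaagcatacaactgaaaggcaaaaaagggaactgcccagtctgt
Nfkbia: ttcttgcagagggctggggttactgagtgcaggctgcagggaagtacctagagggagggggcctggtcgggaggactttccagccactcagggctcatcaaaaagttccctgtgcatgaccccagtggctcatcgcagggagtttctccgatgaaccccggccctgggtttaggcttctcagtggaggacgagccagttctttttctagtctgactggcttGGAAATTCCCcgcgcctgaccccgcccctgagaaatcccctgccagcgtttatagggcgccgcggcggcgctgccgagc
Both printed Nfkb2 windows and the printed Tnfaip3 window held 2 matches, and 0.167% of all windows held 2 or more. The other Tnfaip3 window (chr10:19011914-19012213) held 0. A further Nfkb2 window (chr19:46305680-46305979) overlaps the downstream one and held the same GGGACTTTCC. The match was GGGGGATTCC at chr17:45555594-45555603 for Nfkbie and GGGAAATCCCC at chr11:23771051-23771061 for Rel. Matches were thus found in Nfkb2, which differed between replicates, and in Tnfaip3, which did not pass that test with TMM scaling.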

How the data were processed

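Poly-A RNA was measured in 4 libraries. The deposited tables, 1 per replicate, hold unnormalized whole-number counts for each gene, and the authors named HISAT2 and GRCm38.p6 for the alignment. Libraries were strand-specific. The counting program and its strand setting are not given in the sources used here, so reads of overlapping genes on opposite strands may not be told apart. Nfkb2 shares 299 exon bases with Psd (5 to 29 counts) and 531 with AC114539.1 (not analysed here), and Nfkbib shares 42 with Sirt2 (3273 to 6974 counts) and 314 with Ccer2 (0 counts), all on the opposite strand. No other gene of the 10 shares exon bases with a gene of GENCODE release M21 on either strand.

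Tables were joined by Ensembl identifier, without the 697 and 329 loci that only 1 table's own assembly defined. Protein-coding genes whose counts over all 4 libraries came to 10 or more were tested using edgeR 4.0.16 under R 4.3.3 (TMM factors, quasi-likelihood F test, two-sided) and DESeq2 1.42.0 as an alternative. An unadjusted p under 0.05 and an adjusted p under 0.1 were the thresholds. The SE and 95% interval were derived from the F statistic. A prior count of 2 entered the log2 values of single libraries. Treatment was the only term of the main fit, since the study's methods name no other, although they do not exclude one. The replicate difference in Vehicle followed that in EGCG (r = 0.64 across genes), and the separately assembled loci show that each table was processed on its own, so a fit with the replicate block is given beside it. There are only 2 such sets of libraries. All p-values rest on these models. Named pathway genes are those with an unadjusted p under 0.05 with or without the block and the 3 most abundant per kilobase in each list. Named markers are the most abundant of each list, and both ranks are over the 4 libraries. Gjb6, Gja1, Pdgfra, Cldn5, Kdr, Cdh5, Mrc1, Cspg4, P2ry12, Tmem119, Sall1, Trem2, Il1b and Il6 were named after their values were seen. The members and lists were chosen with earlier results of these data known. The κB consensus is the degenerate decamer of that name.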

Additional observations from a re-analysis of the deposited data

How the results depend on the processing

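With the replicate block in edgeR, 444 genes, 3 of the 10 NF-κB genes and 13 pathway genes had an unadjusted p under 0.05, against 16, 0 and 0 without it. DESeq2 with the block gave 153, 2 and 7. Without the block, the newer quasi-likelihood method gave 38 genes, 10 counts in every library gave 3 and all biotypes gave 35, with 0 of the 10 under each. The cause was not tested. A further 3 alternatives were chosen after seeing the data: the block gave 490 genes, 3 of the 10 and 12 pathway genes under upper-quartile scaling, 501, 4 and 12 under scaling to total counts, and 605, 3 and 18 with 10 counts in every library. With total counts the 4th gene was Nfkbiz, lower in EGCG with a log2 fold change of -0.14 (edgeR, unadjusted p = 0.0492). With total counts only, Nfkb2 came to -0.0046 without the block, and Nfkb1 to -0.0069 and Rela to -0.012 with it. With that scaling the median log2 difference between the EGCG libraries was 0.11 over all genes (0.01 with TMM) and 0.89 over the 10 (0.78 with TMM).

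Leaving out 1 library at a time without the block gave 8 to 134 genes, 0 to 2 pathway genes, 0 of the 10, and a median over the 10 of -0.40 to 0.52. Log2 fold changes ranged from -0.50 to 0.51 for Nfkb1, -0.68 to 0.74 for Nfkb2, -0.30 to 0.52 for Rel, -0.50 to 0.45 for Rela, -0.56 to 0.78 for Relb, -0.21 to 0.64 for Nfkbia, -0.066 to 0.29 for Nfkbib, -0.083 to 0.44 for Nfkbie and -1.59 to 1.34 for Nfkbiz. By construction such a fit sets 1 library against both replicates, which differed for these genes. Tnfaip3 was positive under all 16 alternatives, from 0.11 to 0.31. In the replicate test 9 of the 10 had an unadjusted p under 0.05 (edgeR or DESeq2) under all 6 alternatives run, and with total counts Tnfaip3 also had an adjusted p of 0.0911. Leaving out a library was not run for it or for the block, since 3 libraries leave no residual degrees of freedom, and the EGCG by replicate interaction could not be tested for the same reason.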

Other observations

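Other genes with a Rel homology domain were the NFAT factors, which act in calcium and osmotic signalling. Of these 5 genes, 4 were higher in both replicate 2 libraries than in both replicate 1 libraries, against 39.2% of all genes tested. Within both replicates 3 were lower in EGCG (against 2851 of the 13811 genes tested) and 0 higher (against 29.9%). Besides Nfat5 these were Nfatc1, with a log2 difference of only -0.01 in replicate 2, and Nfatc4. Nfatc4 held only 11 to 37 counts per library and differed by -0.03 in replicate 2. Nfatc2 had the largest replicate difference of the 5, and Nfat5 the only blocked p under 0.05 in edgeR. Nfatc2 was at 24.5 CPM in Vehicle and 26.1 CPM in EGCG of replicate 1, and 110 and 99.7 CPM in those of replicate 2, a log2 difference between replicates of 2.05 (edgeR adjusted p = 0.000143). Nfat5 was at 104, 95.1, 149 and 130 CPM in that order and was lower in EGCG within both replicates, with a blocked log2 fold change of -0.16 (unadjusted p = 0.0230 in edgeR and 0.0684 in DESeq2). Without the block its unadjusted p was 0.574 in edgeR, and no adjusted p for EGCG was under 0.1.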
